A study of Homo sapiens
Mus musculus with 6 samples.

Results

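The genes described here are those of MHC class I antigen presentation in mouse myoblasts: the heavy chain genes H2-K1 and H2-D1, the light chain gene B2m, the peptide transporter and loading genes Tap1, Tap2 and Tapbp, the immunoproteasome genes Psmb8, Psmb9 and Psmb10, and the trimming peptidase gene Erap1. They were chosen by name, with earlier results of these data known, and all 10 of the 10 were found among 23433 mouse gene entries. Each of 6 co-culture wells held mouse C2C12 cells, a myoblast line from skeletal muscle, and human HEK293-Flp-In cells, a kidney-derived line that served as the signal-sending partner. The C2C12 cells were the control line (wild type) or C2C12-FLNotch1 (Notch1 expression, kept under puromycin), called C2C12-Notch1 here. All wells of both lines were transfected with the plasmid pcDNA5 at 1.6 ug per well, after 8 h of settling. After another 18 h they received HEK cells: the control line (HEK-control), a line expressing wild-type Jag1 (HEK-Jag1WT) or a line expressing Jag1Ndr, the Nodder form of this Notch ligand (HEK-Jag1Ndr). Both Jag1 lines were kept under hygromycin, and co-culture lasted 6 h. There was 1 well per combination, so 3 wells shared each C2C12 line and 2 shared each HEK line. Wells sharing a line stood in as replicates. No separate cultures are named in the labels, so a p-value covers only well-to-well spread, some or all of which may be technical. The labels compare 1 C2C12-Notch1 line with 1 control line. The Notch1 transgene, the selection and the history of the line cannot be told apart, and whether the line is 1 clone is not given in the sources used here.

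Class I molecules display peptides from a cell's own proteins to CD8 T cells. Proteasomes cut proteins into peptides, the TAP transporter carries these into the endoplasmic reticulum, ERAP1 trims them, and tapasin helps load them onto a heavy chain paired with beta-2-microglobulin. The immunoproteasome replaces the 3 catalytic subunits of the standard proteasome, and its genes, like most class I genes, are inducible by interferon, through IRF1 and NLRC5 among other factors. Resting skeletal muscle is known for little class I protein, while cultured myoblasts express it.

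Each well held 2263529 to 7965231 mouse reads and 4081452 to 10292878 human reads. Mouse reads made up 47.2% to 52.7% of both in the C2C12-control wells and 29.6% to 36.5% in the C2C12-Notch1 wells, so the share moved with the C2C12 line; its part in the results was not tested. In these mixed bulk wells, fewer cells of a type and less RNA per cell cannot be told apart. Notch1 stood at 9.06 to 20.4 RPKM (reads per kilobase of gene model per 1000000 mouse reads) in the C2C12-control wells and at 158 to 179 RPKM in the C2C12-Notch1 wells. All 9 listed C2C12 markers had reads, and together they took 7889 to 8957 reads per 1000000 in the C2C12-control wells and 7918 to 8568 in the C2C12-Notch1 wells. Most of that sum is Vim, and single markers differed: 5 of the 9 were higher in C2C12-Notch1 wells and 3 lower, with log2 differences of 2.08 for Pax7, 1.48 for Myog, 0.94 for Myod1, -0.61 for Des and -2.46 for Msc. Among all genes tested 28.4% were called higher and 29.4% lower in this comparison. The part of these marker differences in the results was not tested. Of 10 immune cell markers in the table, 4 (Itgam, Aif1, Cd3e and Emr1) were at 0 in all wells, and Ptprc, the pan-leukocyte marker, was at 0.0225 RPKM in 1 well and 0 elsewhere. Their summed reads were 26.0 to 35.1 per 1000000 in the C2C12-control wells and 9.72 to 13.5 in the C2C12-Notch1 wells. Most of these reads fell on Cd14, a lipopolysaccharide co-receptor gene, which was lower in C2C12-Notch1 wells by a log2 difference of -1.59 (edgeR adjusted p 3.64e-14).

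The main question was how the class I genes of C2C12-Notch1 cells stood against those of C2C12-control cells. All 10 were lower in C2C12-Notch1 wells, from 1.95-fold for Tap2 to 45.9-fold for Psmb8, with a median log2 difference of -2.03. The median over all 11365 genes tested was 0.0026. In this comparison 57.8% of all genes tested passed in either direction, 28.4% were called higher, 29.4% were called lower, and 6.93% were called lower by more than 2-fold, as were 9 of these 10. Tap2 was the exception. For each of the 10 genes all C2C12-Notch1 wells lay below all C2C12-control wells, as for 30.0% of all genes tested. Psmb8 and Psmb9 had under 10 reads in every C2C12-Notch1 well and entered the test through the C2C12-control wells, so they had to differ. The other 8 had at least 10 reads in every well, and 8 of 8 were lower, with a median of -1.87. As the genes were chosen with earlier results of these data known, these counts describe them and are not a blind test.

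**Figure D1:**
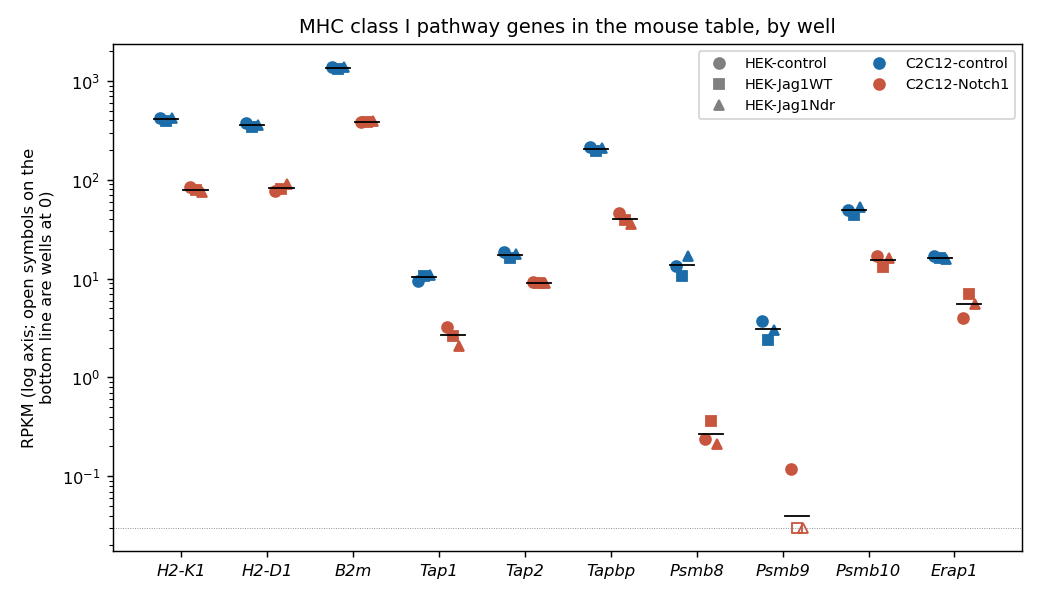
Level of each of the 10 class I genes in each of the 6 wells, as deposited RPKM on a log axis, with wells coloured by C2C12 line and shaped by HEK partner, lines at the mean of each C2C12 line and open symbols for wells at 0. Wells of the C2C12-control line lie above those of C2C12-Notch1 for every gene, from B2m (1317 to 1385 against 385 to 395 RPKM) to Psmb9, which is at 0 in 2 wells.

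Among the chains of the class I molecule, H2-K1 had the largest difference. With the HEK partners in the order control, Jag1WT and Jag1Ndr, kept below, its level was 418, 391 and 421 RPKM in C2C12-control wells and 84.5, 78.7 and 75.0 RPKM in C2C12-Notch1 wells. The groups did not overlap, and within each the wells lay close together. The log2 difference was -2.38 (SE 0.0551, edgeR adjusted p 1.94e-41), or 5.21-fold lower. H2-D1, the other classical heavy chain gene, had 377, 344 and 358 RPKM against 77.3, 80.6 and 91.4 RPKM, a log2 difference of -2.13 (SE 0.0698, adjusted p 5.45e-34). B2m, which encodes the light chain shared by all class I heavy chains, had 1385, 1317 and 1376 RPKM against 385, 386 and 395 RPKM. Its log2 difference was -1.82 (SE 0.0479, adjusted p 1.25e-38), a smaller one than for either heavy chain gene, and its 3 wells within a line were the most alike.

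Per length, the heavy chain genes therefore stood lower relative to B2m in the C2C12-Notch1 wells. H2-K1 was at 30.1% ± 0.472 (SD, n = 3) of the B2m RPKM in C2C12-control wells and at 20.4% ± 1.48 in C2C12-Notch1 wells. H2-D1 was at 26.5% ± 0.658 and 21.4% ± 1.60 of B2m. H2-D1 was at 87.8% ± 2.64 of H2-K1 in C2C12-control wells, and at 91.4%, 102% and 122% in the C2C12-Notch1 wells. Reads and RPKM together imply a length of 627 bases for H2-D1 and 1551 bases for H2-K1. The size of these percents rests on such lengths. For each of these ratios the groups did not overlap, and the two-sided exact permutation p was 0.1, the smallest that 3 wells against 3 allow (0.114 adjusted over 8 ratios). The mouse class I genes are near-identical copies of each other and differ between strains. C2C12 cells come from C3H mice and the mm9 build from C57BL/6J, and the handling of reads that match several copies is not given in the sources used here, so the split of reads between H2-K1, H2-D1 and their relatives is uncertain. Summed over the 23 entries of classical and nonclassical H2 class I genes, reads per 1000000 were 1047 ± 47.8 (SD, n = 3) in C2C12-control wells and 216 ± 5.81 in C2C12-Notch1 wells. The sum does not rest on how the counted reads were split between these entries. Any reads dropped for matching several copies would be missing from it. In this sum 8 entries, H2-L among them, were listed at 0 in all wells.

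Peptide transport and loading genes differed in size of change. Tapbp encodes tapasin, which bridges the transporter and the empty heavy chain. It had 214, 195 and 211 RPKM in C2C12-control wells and 46.2, 39.4 and 35.6 RPKM in C2C12-Notch1 wells, a log2 difference of -2.37 (SE 0.0586, adjusted p 5.59e-40 by edgeR). Its ratio to H2-K1 was 50.4% ± 0.753 (SD, n = 3) in C2C12-control wells and 50.7% ± 3.66 in C2C12-Notch1 wells (exact permutation p 0.9), the only ratio of the 8 whose groups overlapped.

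The transporter is a dimer of the products of Tap1 and Tap2. Tap1 had 9.55, 10.6 and 11.0 RPKM in C2C12-control wells and 3.25, 2.65 and 2.09 RPKM in C2C12-Notch1 wells, a log2 difference of -1.93 (SE 0.155, adjusted p 2.57e-16 by edgeR). Tap2 had 18.5, 16.2 and 17.7 RPKM against 9.31, 8.97 and 9.07 RPKM, a log2 difference of -0.96 (SE 0.107, adjusted p 2.36e-11), the smallest of the 10. Tap1 thus stood at 59.7% ± 7.31 (SD, n = 3) of the Tap2 RPKM in C2C12-control wells and at 29.1% ± 5.95 in C2C12-Notch1 wells, without overlap (exact permutation p 0.1). Among all genes tested, 7.20% had a lower log2 difference than Tap2 and 3.23% a lower one than Tap1.

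Of the immunoproteasome genes, Psmb8 and Psmb9 were near absent from C2C12-Notch1 wells, and Psmb10 was not. Psmb8 encodes the chymotrypsin-like catalytic subunit. It had 66, 60 and 166 reads in C2C12-control wells, or 13.4, 10.5 and 17.02 RPKM, and 2, 1 and 1 reads in C2C12-Notch1 wells, or 0.236, 0.362 and 0.213 RPKM. The log2 difference was -5.52 (SE 0.356, edgeR adjusted p 3.41e-20), and over the alternatives it lay between -5.71 and -3.51. In summed reads, 292 against 4, Psmb8 was 50.4-fold lower in C2C12-Notch1 wells, with a 95% counting interval from 19.5 to 186. Of all genes tested, 0.686% had a lower log2 difference, a rank that follows in part from entering the test through the C2C12-control wells alone.

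Psmb9, another catalytic subunit gene, lies beside Tap1 in the genome and shares its promoter region. It had 12, 9 and 20 reads in C2C12-control wells, or 3.73, 2.42 and 3.03 RPKM, and 1, 0 and 0 reads in C2C12-Notch1 wells. The 41 against 1 summed reads give a ratio of 28.3, with a 95% counting interval from 4.80 to 1145. Intervals of this kind cover counting error only. The fitted log2 difference of -4.56 (SE 0.805, edgeR adjusted p 2.64e-06) rests on that single read and ranged from -6.49 to -1.95 over the alternatives. By its RPKM the single read was a fraction, 0.501 of a read, listed as 1.

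Psmb10, the third inducible catalytic subunit gene, was still well expressed in C2C12-Notch1 wells. It had 49.5, 44.3 and 53.1 RPKM in C2C12-control wells and 17.03, 13.1 and 16.1 RPKM in C2C12-Notch1 wells, a log2 difference of -1.66 (SE 0.103, adjusted p 6.20e-21 by edgeR). As fitted, Psmb10 was 3.15-fold lower and Psmb8 45.9-fold lower. Psmb8 entered the test only through the C2C12-control wells and held 2, 1 and 1 reads in C2C12-Notch1 wells. Whether these genes differ in size of change was not tested.

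**Figure D2:**
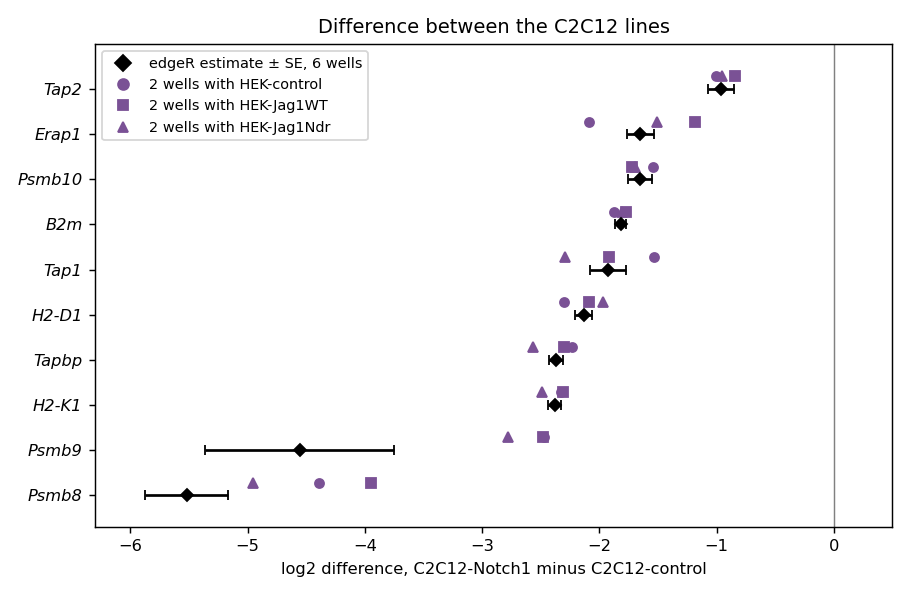
Log2 difference between C2C12-Notch1 and C2C12-control for each class I gene, as the edgeR estimate with its SE over 6 wells (black) and as the ratio of the 2 wells that share a HEK partner (purple; log2 CPM with a prior count of 2, which draws Psmb8 and Psmb9 towards 0). Every ratio lies below 0, from -1.004 to -0.85 for Tap2 to -4.95 to -3.95 for Psmb8.

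Each inducible subunit was set beside the standard subunit whose place it takes. Psmb8 was at 19.9% ± 5.88 (SD, n = 3) of the RPKM of Psmb5 in C2C12-control wells and at 0.307% ± 0.0866 in C2C12-Notch1 wells. In reads, the C2C12-control wells held 66, 60 and 166 for Psmb8 and 93, 94 and 154 for Psmb5. The size of such a percent thus rests on the gene lengths behind the RPKM. Psmb10 was at 32.3% ± 3.91 of Psmb7 and then at 8.95% ± 1.67. Psmb9 was at 2.07% ± 0.500 of Psmb6 in C2C12-control wells, and at 0.0758%, 0% and 0% in the C2C12-Notch1 wells. For all 3 pairs the groups did not overlap (exact permutation p 0.1 each). The pairs of Psmb8 and Psmb9 had to give this result, as both genes were near absent from C2C12-Notch1 wells. The Psmb10 pair restates the lower level of Psmb10 given above beside a Psmb7 level that differed little. None of the 3 ratios is thus separate support.

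Of the standard subunits, 2 of 3 were called slightly higher in C2C12-Notch1 wells, while 28.4% of all genes tested were called higher. Psmb5 had 77.0, 67.2 and 64.0 RPKM against 84.3, 89.7 and 89.9 RPKM, a log2 difference of 0.33 (edgeR adjusted p 0.0210). Psmb7 stood at 0.18 (adjusted p 0.0113) and Psmb6 at 0.03 (adjusted p 0.632). The calls of Psmb5 and Psmb7, 2 of 3 genes, were lost with DESeq2 (0 of 3). They were also lost (0 of 3 each) when 1 of these wells was left out: C2C12-control beside HEK-Jag1WT, C2C12-control beside HEK-Jag1Ndr or C2C12-Notch1 beside HEK-Jag1Ndr. Leaving out C2C12-Notch1 beside HEK-Jag1WT gave 1 call, as did a fit with no HEK term.

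**Figure D3:**
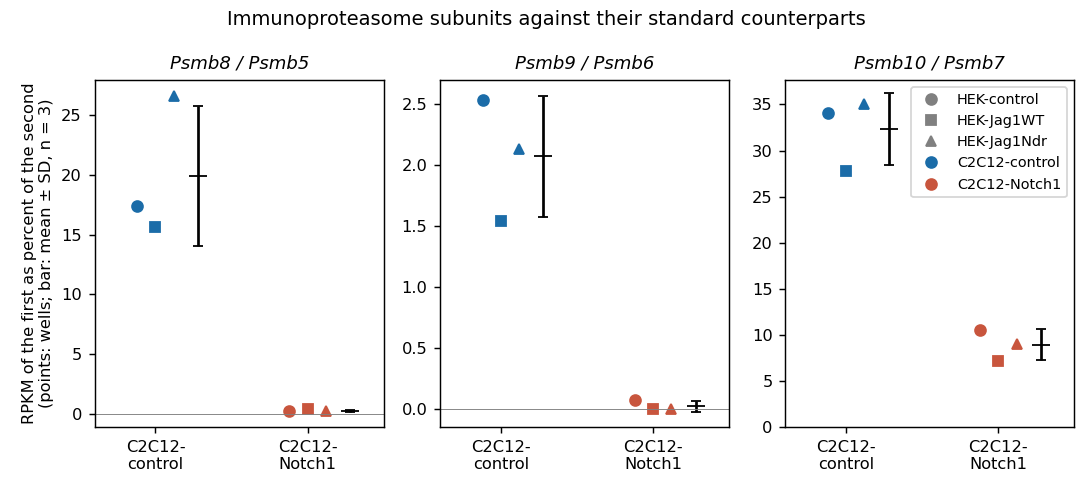
Level of each inducible catalytic subunit as a percent of the RPKM of the standard subunit it replaces, per well on a linear axis that includes 0, with bars at the mean and SD of the 3 wells of each C2C12 line. All 3 ratios are lower in the C2C12-Notch1 wells, at 8.95% ± 1.67 for Psmb10 over Psmb7 against 32.3% ± 3.91 in C2C12-control wells. Those of Psmb8 and Psmb9 had to be lower, as both genes were near absent from C2C12-Notch1 wells.

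Erap1, which trims peptides in the endoplasmic reticulum, had 16.9, 16.1 and 15.8 RPKM in C2C12-control wells and 3.95, 7.003 and 5.51 RPKM in C2C12-Notch1 wells. The groups did not overlap, and the C2C12-Notch1 wells differed more among themselves than the C2C12-control wells. The log2 difference was -1.65 (SE 0.115, edgeR adjusted p 3.07e-15). By HEK partner its ratio between the C2C12 lines lay between -2.09 with HEK-control and -1.18 with HEK-Jag1WT, the widest range among the genes with at least 10 reads in every well.

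Ordered by RPKM, the C2C12-control wells ran from B2m at 1359.6 ± 36.8 (SD, n = 3) through H2-K1 at 410.0 ± 16.7, H2-D1 at 359.7 ± 16.4, Tapbp at 207 ± 10.6 and Psmb10 at 49.0 ± 4.44. Each of these lay above the next in every well. Tap2 at 17.5 ± 1.19, Erap1 at 16.3 ± 0.548, Psmb8 at 13.7 ± 3.25 and Tap1 at 10.4 ± 0.740 followed, and neighbours among these overlapped. Psmb9 was lowest at 3.06 ± 0.658. In C2C12-Notch1 wells B2m was again highest at 389 ± 5.42. H2-D1 at 83.1 ± 7.41 and H2-K1 at 79.4 ± 4.80 overlapped there, and below them Tapbp, Psmb10, Tap2, Erap1 and Tap1 lay apart, down to Psmb8 at 0.270 ± 0.0803. Psmb8 thus moved from beside Tap1 to below it.

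The rest of the class I pathway was read from lists ordered by role. Each count below stands beside the 29.4% of all genes tested that were called lower and the 28.4% called higher in this comparison. Of 22 other class I and class I-like heavy chain genes, 8 had no reads in any well and 10 were tested, of which 8 were lower and 0 higher (median log2 difference -1.79). Among these, H2-T24, H2-Q10 and Hfe had under 10 reads in every C2C12-Notch1 well and entered the test through the C2C12-control wells. They therefore had to differ, and they are part of the count and the median. H2-Q4, a nonclassical gene, had 52.2, 42.9 and 54.3 RPKM in C2C12-control wells and 8.50, 5.50 and 7.77 RPKM in C2C12-Notch1 wells, a log2 difference of -2.75 (SE 0.120, adjusted p 8.04e-28 by edgeR). H2-T23, which encodes Qa-1, the ligand of an inhibitory receptor of natural killer cells, stood at -2.07 (adjusted p 3.69e-24), H2-Q2 at -2.15 and H2-T24 at -2.70. The other 4 that were lower, named after their values were seen, were H2-Q10 at -2.02, Mr1, which presents vitamin metabolites, at -0.93, the iron regulator gene Hfe at -1.57 and the neonatal Fc receptor gene Fcgrt at -0.70. H2-M3 at -0.47 (adjusted p 0.123) and Cd1d1, which presents lipids, at -0.09 (adjusted p 0.778) did not pass. As members of multigene families, the H2-Q and H2-T entries carry the same doubt over shared reads as H2-K1 and H2-D1.

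General folding factors of class I molecules did not move as a block. Of 9 tested, 2 were higher and 3 lower, with a median log2 difference of -0.03. That is near the 57.8% of all genes tested that passed in either direction, so the count does not set this list apart. Tapbpl, which encodes the tapasin relative TAPBPR, had 12.8, 11.2 and 13.1 RPKM against 5.17, 4.23 and 5.51 RPKM, a log2 difference of -1.31 (edgeR adjusted p 7.69e-11). Hspa5, an endoplasmic reticulum chaperone gene, was higher by 0.74. P4hb stood at -0.20 and Uggt1 at -0.19. The other higher gene, Ganab at 0.13 (adjusted p 0.0282), was named after its values were seen, and 9 of the 15 alternatives left 1 higher gene in this list.

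Proteasome genes outside the inducible trio went both ways. The count of core subunit calls was near the 57.8% of all genes tested that passed in either direction, so it does not set them apart. Of 12 other core subunit and assembly genes 6 were higher and 1 lower (median log2 difference 0.14), with Psma6 at 0.71 (edgeR adjusted p 5.75e-13), Psma2 at -0.62 (adjusted p 2.27e-08), Psmb2 at 0.22 and Psma5 at 0.33. The count of higher genes was 1 with DESeq2, and 3 and 2 without the C2C12-control and the C2C12-Notch1 well with HEK-Jag1Ndr; without either of these wells 2 were lower. The proteasome activators were split 2 and 2. Psme1 and Psme2 encode the interferon-inducible PA28 cap and stood at -1.16 (adjusted p 2.15e-17) and -0.80 (adjusted p 0.00189), while Psme3 stood at 0.46 and Psme4 at 0.19. With DESeq2 1 was lower and 1 higher, and leaving out C2C12-Notch1 beside HEK-Jag1Ndr gave 1 higher. Of 8 other peptidases, 1 was higher (Thop1, a cytosolic oligopeptidase gene, at 0.44) and 1 lower (Npepps at -0.21, a call lost with DESeq2, which left 0), and the next by p were Lnpep at 0.12 (adjusted p 0.123) and Blmh at -0.10 (adjusted p 0.294).

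**Figure D4:**
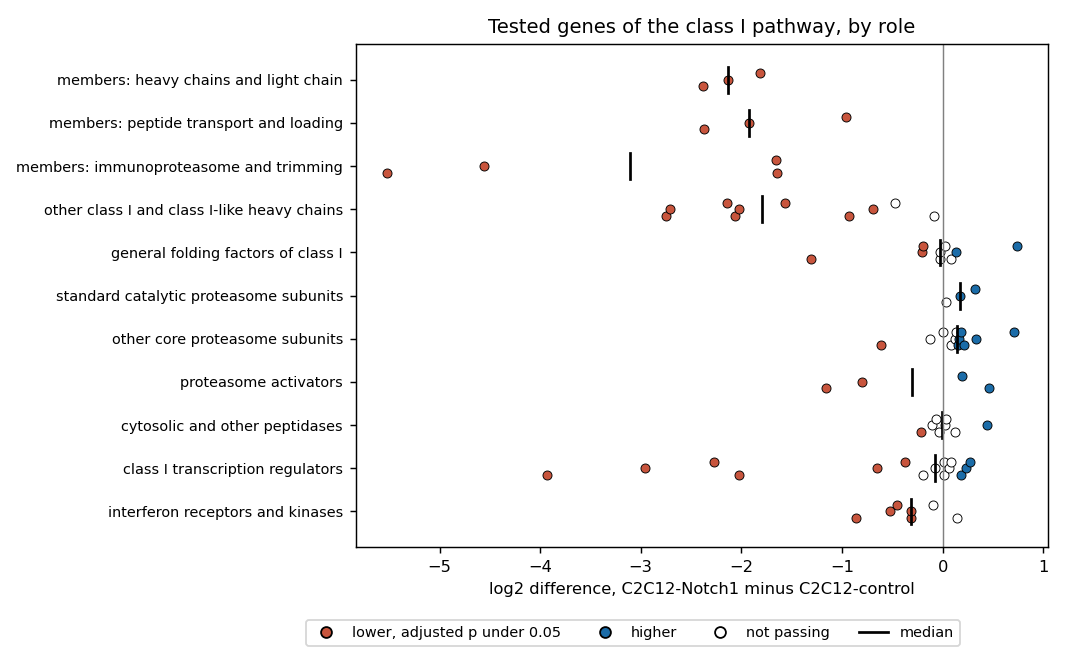
Log2 difference between C2C12-Notch1 and C2C12-control for every tested gene of the class I pathway, 1 row per role, with filled points for genes past an adjusted p of 0.05 and a bar at each row's median. The 10 class I genes and the other heavy chain genes (median -1.79) lie to the left, while folding factors (-0.03), standard catalytic subunits (0.18) and peptidases (-0.01) lie around 0.

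Of 15 transcription regulators of class I genes, 6 were lower and 3 higher, with a median log2 difference of -0.08. Together these calls are near the 57.8% of all genes tested that passed in either direction, so the count does not set the list apart. Nlrc5, the class I transactivator gene, had 3.77, 2.80 and 3.48 RPKM in C2C12-control wells and 1.06, 0.773 and 0.681 RPKM in C2C12-Notch1 wells, a log2 difference of -2.02 (SE 0.176, adjusted p 5.67e-15 by edgeR). Irf9, the DNA-binding subunit of the complex that answers type I interferon, stood at -3.93 (adjusted p 3.39e-36). Irf1 moved less: it had 58.4, 60.7 and 63.7 RPKM against 37.1, 43.8 and 37.8 RPKM, a log2 difference of -0.65 (SE 0.0707, adjusted p 1.09e-11). Nfya at 0.23, Nfyb at 0.27 and Creb1 at 0.18, named after their values were seen, were the 3 higher genes. Their count was 0 with DESeq2 and with limma on unfiltered RPKM, and 1 without either well with HEK-Jag1Ndr.

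Of 7 interferon receptor and kinase genes, 5 were lower and 0 higher, with a median log2 difference of -0.32. Among all genes tested 29.4% were called lower. The kinase gene Tyk2 stood at -0.86 (edgeR adjusted p 2.37e-12), the receptor genes Ifnar1 at -0.45, Ifngr2 at -0.52 and Ifnar2 at -0.31, and Jak2, named after its values were seen, at -0.32. Ifngr1 at 0.14 (adjusted p 0.0981) and Jak1 at -0.10 (adjusted p 0.103) did not pass. With DESeq2 3 of the 7 were lower. Class II presentation genes, which belong to professional antigen-presenting cells, were near absent. Of 10, 4 had no reads in any well, and their sum was 2.51 to 4.02 reads per 1000000 in C2C12-control wells and 6.24 to 7.07 in C2C12-Notch1 wells. H2-DMa, the 1 tested, was higher by 0.93 (adjusted p 0.00512), a call lost with DESeq2 and without either well with HEK-Jag1Ndr.

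The next question was whether the class I genes of C2C12 cells differed after 6 h beside the Jag1-expressing lines. The 3 comparisons share wells, so they are given side by side. None of the 10 genes passed edgeR's test in any of the comparisons, and DESeq2 and limma also called 0 in each. Of all genes tested, 4.46% passed for HEK-Jag1WT minus HEK-control, 0.528% for HEK-Jag1Ndr minus HEK-control and 2.03% for HEK-Jag1Ndr minus HEK-Jag1WT. At an unadjusted edgeR p under 0.05 the counts were 1, 0 and 2 of the 10. The share of all genes at that unadjusted threshold was not computed, so these counts do not show a response of the class I genes. The median log2 differences of the 10 genes were -0.10, 0.03 and 0.06.

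The best measured genes had narrow intervals here. B2m lay between -0.12 and 0.11 for HEK-Jag1WT minus HEK-control (95% interval of the log2 difference), and between -0.08 and 0.15 for HEK-Jag1Ndr minus HEK-control. H2-K1 lay between -0.21 and 0.06, and between -0.15 and 0.10. H2-D1 lay between -0.21 and 0.12, and between -0.12 and 0.19. Tapbp lay between -0.29 and -0.01 for HEK-Jag1WT minus HEK-control, an interval that left out 0, with an edgeR adjusted p of 0.313. For the genes with few reads the intervals were wide: Psmb9 lay between -1.98 and 0.64, and between -1.42 and 0.78. The fit takes an effect of the HEK line to be the same in both C2C12 lines, and a response in 1 line counts as spread.

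Below the threshold, Tapbp stood at -0.15 for HEK-Jag1WT minus HEK-control (unadjusted edgeR p 0.0360, adjusted p 0.313). Psmb8 stood at 0.65 for HEK-Jag1Ndr minus HEK-Jag1WT (interval 0.19 to 1.11, unadjusted p 0.00622, adjusted p 0.188), a value that rests on 166 against 60 reads in C2C12-control wells, as the C2C12-Notch1 wells held 1 read each. Psmb10 stood at 0.26 in the same comparison (unadjusted p 0.0275, adjusted p 0.403), with 53.1 against 44.3 RPKM in C2C12-control wells and 16.1 against 13.1 RPKM in C2C12-Notch1 wells.

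Within 1 C2C12 line each response is a ratio of single wells, without a test, given with its 95% counting interval. In C2C12-Notch1 cells Erap1 was higher by a log2 ratio of 0.88 (0.38 to 1.36) beside HEK-Jag1WT than beside HEK-control, and by 0.51 (0.05 to 0.96) beside HEK-Jag1Ndr, on 83, 64 and 85 reads. In C2C12-control cells the ratios were -0.05 (-0.29 to 0.20) and -0.08 (-0.30 to 0.14), and the difference between the C2C12 lines was not tested. Over both lines Erap1 stood at 0.18 for HEK-Jag1WT minus HEK-control (edgeR adjusted p 0.646). Leaving out C2C12-control beside HEK-control, it stood at 0.71. That fit held 1 HEK-control well, the same as in the single-well ratio of 0.88, so it adds no separate support. For HEK-Jag1Ndr over HEK-control, Tapbp stood at -0.34 (-0.53 to -0.15) in C2C12-Notch1 cells and -0.0024 (-0.08 to 0.07) in C2C12-control cells. H2-D1 stood at 0.28 (0.01 to 0.54) for the same pair of wells in C2C12-Notch1 cells. In C2C12-control cells 5 of the 10 counting intervals for HEK-Jag1Ndr over HEK-Jag1WT lay above 0: H2-K1 at 0.10, B2m at 0.05, Tapbp at 0.11, Psmb8 at 0.67 and Psmb10 at 0.25. In C2C12-Notch1 cells 0 of 10 did, on fewer reads and with wider intervals. There H2-K1 stood at -0.08, B2m at 0.02, Tapbp at -0.15, Psmb8 at -0.78 (1 read in each well) and Psmb10 at 0.28. The share of all genes with such intervals was not computed, so these counts do not show a response of the class I genes or a difference between the C2C12 lines. Tapbp in C2C12-control cells stood at -0.11 (-0.20 to -0.03) for HEK-Jag1WT over HEK-control.

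**Figure D5:**
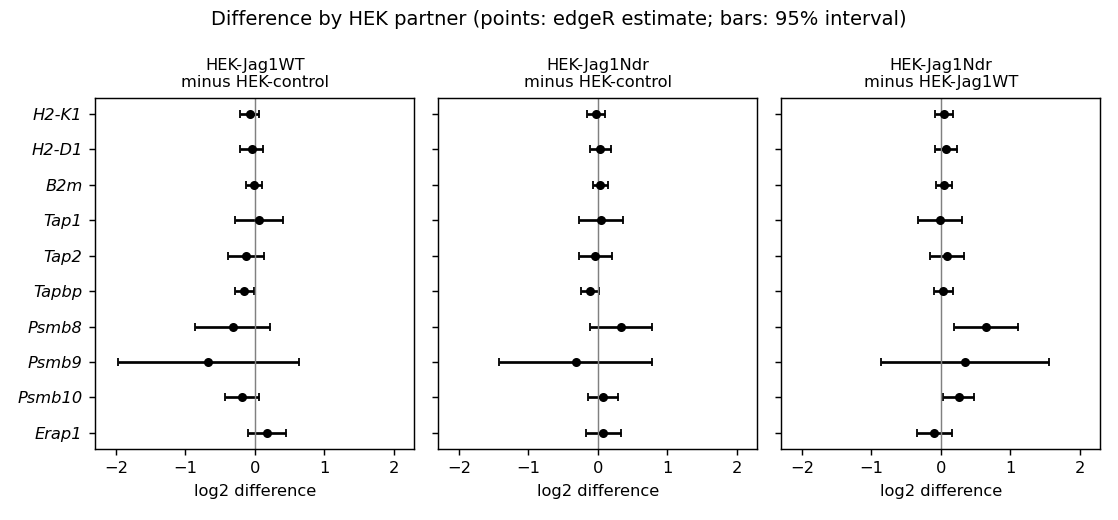
Log2 difference of each class I gene between wells that differ in HEK line, in 3 panels for the 3 comparisons, as the edgeR estimate with its 95% interval over both C2C12 lines. B2m, H2-K1 and H2-D1 sit close to 0 with narrow intervals in all panels. Tapbp lies below 0 for HEK-Jag1WT minus HEK-control, between -0.29 and -0.01. Psmb9 has the widest interval, and none of the 10 genes passed an adjusted p of 0.05.

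For each class I gene the nearest profiles over the 6 wells were sought among 10562 genes, as the smallest root mean square distance of centred log2 CPM. Since the profiles turn on 2 C2C12 lines, nearness mostly means a like difference between these. Nearest to H2-K1 were Parp12, an interferon-inducible mono-ADP-ribosyltransferase gene, at a distance of 0.0465, and Samd9l, an antiviral gene, at 0.0569. Parp12 was also nearest to Tapbp (0.0754), followed by Serpinb9b (0.0885), and H2-K1 and Tapbp were each other's nearest among the 10, at 0.0602. Nearest to H2-D1 were H2-Q2 (0.0867) and Ifi202b (0.0890), and nearest to B2m were Ifit2, an interferon-induced gene, (0.0464) and Pnmal2 (0.0650). Tap1 lay nearest to Car9 (0.0958), a carbonic anhydrase gene, and Dtx3l (0.112), a ubiquitin ligase gene.

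Tap2 lay nearest to Galnt1 (0.0389), which starts O-glycosylation, and Lgals8 (0.0411), a galectin gene. Psmb8 lay nearest to Fam5c (0.204) and Igtp (0.228), an interferon-inducible GTPase gene, and Psmb9 to Pi15 (0.154) and Cd34 (0.155). The prior count of 2 draws the profiles of Psmb8 and Psmb9 towards 0. Pi15 and Cd34 had log2 differences between the C2C12 lines of -2.68 and -2.50, against the fitted -4.56 of Psmb9, so their nearness rests on the prior count. Psmb10 lay nearest to Psrc1 (0.0367) and Man2b2 (0.0823), and Erap1 to Nhlrc4 (0.0946) and Gulp1 (0.124). Pearson's r over the 6 wells was at least 0.989 for all of these pairs, as a description of wells that fall into 2 groups by C2C12 line.

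The human table of the same wells holds the orthologues in the HEK cells, described without a test. With HEK lines in the same order, B2M had 335, 257 and 332 RPKM beside C2C12-control cells and 346, 301 and 400.0 RPKM beside C2C12-Notch1 cells, higher beside C2C12-Notch1 with each HEK line. TAPBP had 116, 107 and 74.7 RPKM and then 104, 95.6 and 66.8 RPKM, lower beside C2C12-Notch1 with each HEK line. TAP1 was highest in HEK-control cells, at 20.4 and 17.6 RPKM beside the C2C12 lines, against 11.1 and 11.6 RPKM in HEK-Jag1WT and 10.5 and 9.18 RPKM in HEK-Jag1Ndr cells. PSMB8 was low throughout, at 0 to 1.58 RPKM, and PSMB9 lay between 0.177 and 1.30 RPKM, while PSMB10 lay between 5.36 and 9.76 RPKM.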

How the data were processed

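PolyA RNA of the 6 wells was made into libraries with a TruSeq v2 kit, which is not strand-marking, per the labels' protocols. The submitters' processing notes name STAR, mm9 and hg19. How reads were counted and assigned to a species is not given in the sources used here. Per gene and well, the authors deposited whole-number read counts, per the file headers, which appear to be fractions rounded up. The authors also deposited RPKM per gene and well, per the file headers, used here for levels and ratios. Of 23905 mouse entries, 472 exact repeats were left out.

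The counts were fitted with edgeR 4.0.16 (R 4.3.3; TMM scaling, filterByExpr, robust quasi-likelihood test) in 1 additive model of C2C12 line plus HEK line, with 2 residual degrees of freedom. P-values were Benjamini-Hochberg adjusted over all 11365 mouse genes tested, at 0.05. The common biological coefficient of variation was 3.89%. An interaction of the lines cannot be tested with 1 well per combination. The script was tested on simulated data.

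The 10 genes, the 11 lists of other genes and the tests were chosen with earlier results of these data known. Named were all 10 genes, up to 4 per other list by smallest p in the C2C12 comparison, Nlrc5, Irf1, Psmb5, Psmb6 and Psmb7 in any case, and the 2 nearest profiles per gene (prior count 2) among those whose mean log2 CPM was 2 or more. Alternatives were other scalings, DESeq2 1.42.0, limma 3.58.1 on log2(RPKM + 1) and log2(RPKM + 0.1), no filter, no robust fit, no term for the other line, and each well left out. Sequences of these genes were not used here, and some genes of the lists are not reported here.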

Additional observations from a re-analysis of the deposited data

How the results depend on the processing

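Each lower call of the 10 class I genes between the C2C12 lines kept its direction and its side of the threshold under all 15 alternatives (14 for Psmb9, not tested without a HEK term), with a highest adjusted p of 0.0052, for Psmb9. With DESeq2, 3585 genes in all passed there. For HEK-Jag1WT minus HEK-control the 507 calls became 151 with DESeq2, 149 and 130 with limma on log2(RPKM + 1) and log2(RPKM + 0.1), 11 with limma unfiltered, 0 with no term for the C2C12 line and 303 to 580 with each well left out. For HEK-Jag1Ndr minus HEK-control the 60 calls became 6 with DESeq2, 91 with no filter, 1 in each limma fit and 0 with no term for the C2C12 line. For HEK-Jag1Ndr minus HEK-Jag1WT the 231 calls became 41 with DESeq2, 5, 6 and 0 with limma, 0 with no term for the C2C12 line and 138 to 313 with each well left out. The share of higher calls moved from 60.6% to 47.1% (HEK-Jag1WT minus HEK-control) and from 81.7% to 69.2% (HEK-Jag1Ndr minus HEK-control) with library size scaling. The cause of these shifts was not tested.

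None of the differences of the 10 genes between HEK lines that turned in sign were called before they turned. For HEK-Jag1WT minus HEK-control, Tap1 turned to -0.0053 with DESeq2, -0.0415 with limma on log2(RPKM + 1), filtered or not, and -0.0682 on log2(RPKM + 0.1), where Psmb8 turned to 0.0563. With each well left out, H2-D1 ranged from -0.12 to 0.16, B2m from -0.0421 to 0.0383, Tap1 from -0.44 to 0.20, Psmb8 from -0.63 to 0.56 and Erap1 from -0.0089 to 0.71, and 0 to 1 of the 10 genes were called higher. For HEK-Jag1Ndr minus HEK-control, Tap1 turned to -0.10 with DESeq2, -0.14 with limma on log2(RPKM + 1), filtered or not, and -0.21 on log2(RPKM + 0.1), and H2-K1 to 0.0058 with no term for the C2C12 line. With each well left out, H2-K1 ranged from -0.14 to 0.0299, H2-D1 from -0.0489 to 0.24, B2m from -0.00025 to 0.0811, Tap1 from -0.49 to 0.19, Tap2 from -0.0648 to 0.0231, Psmb8 from -0.64 to 0.35, Psmb10 from -0.0513 to 0.12 and Erap1 from -0.10 to 0.62. For HEK-Jag1Ndr minus HEK-Jag1WT, Tapbp turned to -0.0111 with limma on log2(RPKM + 1), filtered or not, and -0.0125 on log2(RPKM + 0.1). With each well left out, H2-K1 ranged from -0.0731 to 0.10, Tap1 from -0.58 to 0.0690, Tap2 from -0.0113 to 0.12, Tapbp from -0.18 to 0.12, Psmb8 from -0.33 to 0.67, Psmb9 from -1.90 to 2.15 and Erap1 from -0.60 to 0.0594. A lone well left in a combination of lines is assumed to vary like the others.

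Depth limits Psmb8 and Psmb9, with 4 and 1 reads over the C2C12-Notch1 wells. The labels carry no replicate numbers; wells were matched by HEK partner through the HEK term of the model.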
